A study of Mus musculus with 11 samples.

Results

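The 7 genes described here encode transcription regulators whose transcripts were higher in mouse trigeminal ganglia that lack the transcription factor Brn3a: Gata3, Tfap2b, Irx1, Foxf1, Msc, Lmcd1 and Zbtb16. They were chosen by their signals in knockout against wild-type arrays, because they rise in knockout ganglia, so their knockout values are given as a description with no test. They are 7 of 13675 named genes on the arrays and are read by 12 of 24899 probe sets, 6 of 12488 on the Affymetrix array type U74Av2 and 6 of 12411 on U74Bv2. Gata3, Tfap2b and Foxf1 have probe sets on both array types, Msc and Zbtb16 on U74Av2 only, and Irx1 and Lmcd1 on U74Bv2 only.

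The study asked which transcripts of the trigeminal ganglion, the sensory ganglion of the face, depend on Brn3a at embryonic day 13.5. The 3 groups were wild-type, heterozygote and knockout embryos, named for the state of Pou4f1, the gene of Brn3a. Strain, knockout allele and any other genetic change that the groups may share were not given in the sources used here. About 10 to 12 ganglia of 1 genotype were pooled for an array, and no label ties a pool to single embryos. U74Av2 had 2 arrays per genotype and U74Bv2 had 2 knockout, 2 heterozygote and 1 wild-type array. A signal is the deposited MAS5 value of a probe set on a linear scale, and signals of different probe sets cannot be ranked against each other.

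Brn3a is a POU-homeodomain factor of sensory neurons and is known both to activate and to repress transcription. Gata3, Tfap2b, Irx1, Foxf1, Msc and Zbtb16 bind DNA themselves, each through a different kind of domain, while Lmcd1 is a LIM-domain cofactor. Factors of these families set up cell identity in many embryonic tissues, among them blood, mesoderm, neural crest, kidney, lung and inner ear. A ganglion holds neurons, glia, vessels and connective tissue. In such bulk RNA, more cells that make a transcript and more of it per cell cannot be told apart.

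The labels and tissue were checked first. The Pou4f1 probe set on U74Bv2 read 3313 in wild-type, 2196 and 3570 in heterozygote and 550 and 904 in knockout arrays. The highest knockout signal was 0.412 of the lowest other signal, while the labels do not place its probes relative to the deleted part. Of 18 sensory neuron genes on U74Av2, 15 passed the filter on dim probe sets, and Ntrk2, Ntrk3 and Ret did not. The homeobox factor Isl1 read 2787 and 3000 in wild-type, 3504 and 2650 in heterozygotes and 2852 and 2296 in knockouts. The summed signal of the 15 measured sensory genes was 78149 to 78595 in wild-type, 84777 to 104218 in heterozygote and 77741 to 84170 in knockout arrays, a sum set mostly by a few bright genes. None of these genes was called, but with array number as a block Prph, an intermediate filament of sensory neurons, was called lower in knockout. It read 7326 and 11130 in wild-type, 9048 and 10444 in heterozygotes and 4015 and 6027 in knockouts (-0.87 ± 0.29, limma adjusted p = 0.744, and 0.0363 with the block). The sodium channel Scn9a read 260 and 566, 426 and 412, and 140 and 178 in that order (-1.07 ± 0.35), which did not pass the test. A brighter Scn9a probe set on U74Bv2 read 1671, 1798 and 2078, and 1129 and 778. Against heterozygotes it differed by -1.01 ± 0.20 (limma adjusted p = 0.0509, and 0.00207 with the block). Of 7 sensory genes measured on U74Bv2, 1 was above wild-type, Ntrk2 (0.90 ± 0.22), with a median difference of -0.22. On U74Av2 9 of 15 were above, with a median of 0.063.

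The RefSeq promoter table of assembly GRCm38.p6 held windows for 3 of the 7 genes, Tfap2b, Gata3 and Lmcd1, and not for Irx1, Foxf1, Msc and Zbtb16. The 250 bases before the annotated start of Tfap2b and Gata3, the pair with the largest gains, are shown because they differ in base composition and in the short words they hold. Capitals mark every match to the homeodomain core TAAT, the AP-2 word GCCNNNGGC and the E-box CANNTG on either strand, and matches may overlap. Tfap2b lies at chr1:19211804-19212053 on the + strand, and Gata3 at chr2:9878601-9878850 on the - strand.
Tfap2b: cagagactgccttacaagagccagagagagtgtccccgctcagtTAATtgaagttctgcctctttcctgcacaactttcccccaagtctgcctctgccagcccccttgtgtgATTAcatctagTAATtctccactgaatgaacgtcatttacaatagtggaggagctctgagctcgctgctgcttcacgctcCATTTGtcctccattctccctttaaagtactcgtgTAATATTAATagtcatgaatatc
Gata3: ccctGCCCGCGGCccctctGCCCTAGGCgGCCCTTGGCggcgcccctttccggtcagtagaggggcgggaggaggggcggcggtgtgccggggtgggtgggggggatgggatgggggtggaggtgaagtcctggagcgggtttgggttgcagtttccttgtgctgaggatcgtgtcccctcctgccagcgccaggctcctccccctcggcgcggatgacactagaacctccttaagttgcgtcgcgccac

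The Tfap2b window had a GC content of 46.4% and held TAAT 6 times, counting overlapping matches in its last run, and 1 E-box. The Gata3 window had a GC content of 70.0% and held the AP-2 word 3 times, with none of the other words. The Lmcd1 window, at chr6:112273508-112273757 on the + strand, had a GC content of 61.2% and held 1 E-box. Over all 32851 windows of this length the median GC content was 52.4%, and TAAT stood in 54.9%, CANNTG in 66.2% and GCCNNNGGC in 13.7%. The published Brn3 word ATAATTAAT stood in 0.259% of windows and GATAA in 22.6%, and neither stood in the 3 windows named here. A match or its lack describes these letters only.

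Gata3, a zinc-finger factor known from T helper cells, sympathetic neurons and the inner ear, had, with Tfap2b, the largest gain on both array types. On U74Av2 its signal was 61.1 and 85.2 in wild-type, 61.1 and 96.1 in heterozygote and 2524 and 2236 in knockout arrays. On U74Bv2 it was 9.50 in wild-type, 87.5 and 41.0 in heterozygote and 1043 and 1417 in knockout arrays. The knockout arrays were far above the rest on both types, the lowest knockout signal being 23.3 times the highest other signal on U74Av2 and 11.9 times on U74Bv2. Differences are given on the scale log2(signal + pseudocount), where the pseudocount, a constant added to each signal, was 50.0 for U74Av2 and 49.8 for U74Bv2. On it, knockout minus wild-type was 4.31 ± 0.26 (SE, a 19.8-fold change) and 4.42 ± 0.39 (21.3-fold). The pseudocount shrinks the change of dim probe sets, and the plain ratio of mean signals was 32.5 for Gata3 on U74Av2. The plain ratio on U74Bv2, 129, rests on the single wild-type signal of 9.50, and no detection calls were used.

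Tfap2b is the AP-2 factor beta of neural crest derivatives and kidney. On U74Av2 it read 22.8 and 26.7 in wild-type, 98.6 and 28.1 in heterozygotes and 1115 and 1037 in knockout arrays. On U74Bv2 another probe set read 351 in wild-type, 347 and 415 in heterozygotes and 7573 and 5119 in knockout arrays. Every knockout signal was at least 10.5 times the highest other signal. Knockout minus wild-type was 3.91 ± 0.35 (15.1-fold) and 3.97 ± 0.26 (15.7-fold), and the plain ratios of mean signals were 43.5 and 18.1. Gata3 and Tfap2b have no settled order, since their gaps lie within the standard error and turn with the scale: Tfap2b had the larger plain ratio on U74Av2, and with a doubled pseudocount on U74Bv2 it was at 3.81 and Gata3 at 3.59. One heterozygote array, number 1 on U74Av2, stood above the other 3 arrays that were not knockout, at 98.6.

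**Figure D1:**
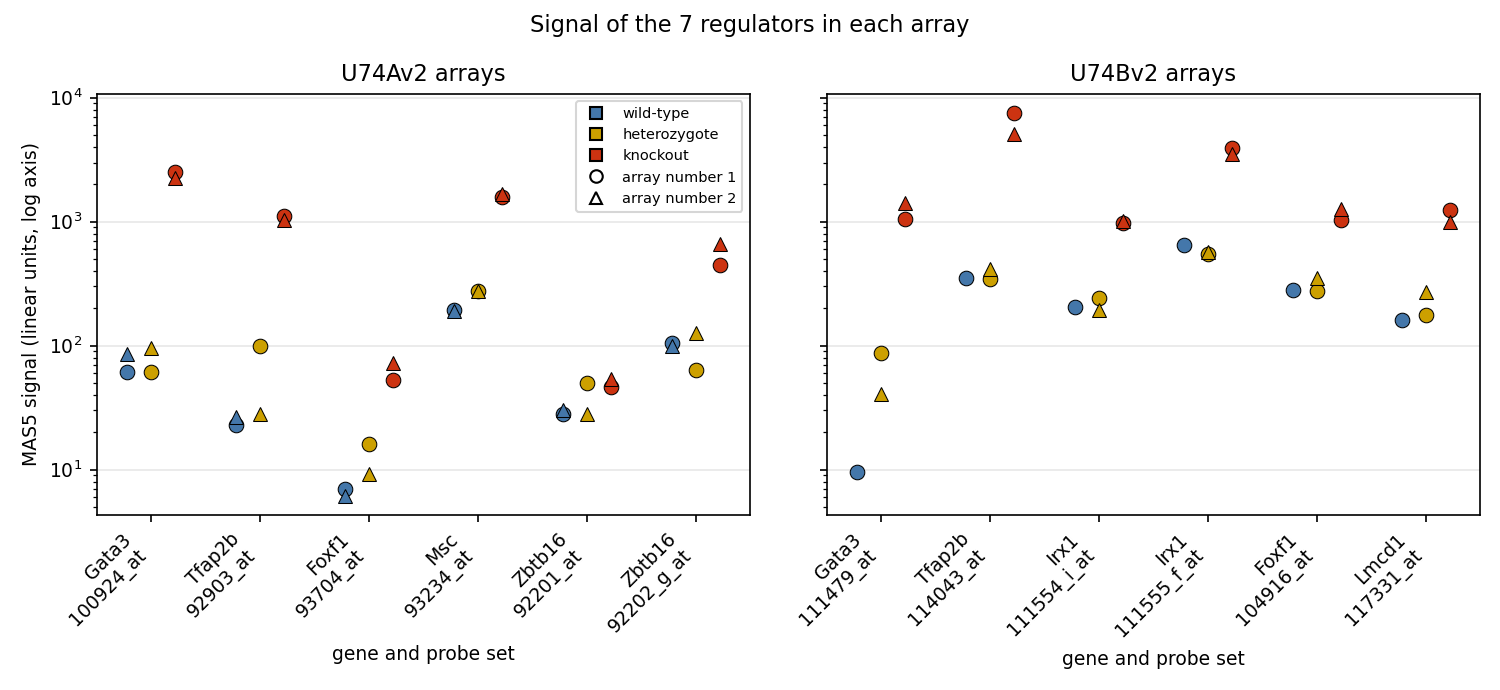
Deposited MAS5 signal (log axis) of each probe set of the 7 genes in every array, U74Av2 on the left and U74Bv2 on the right; colours are genotypes and shapes are the array numbers of the labels. Both knockout arrays lie above all other arrays for 11 of the 12 probe sets, the exception being Zbtb16 92201_at. Heterozygote arrays lie near wild-type for most probe sets. They lie higher for Gata3 on U74Bv2 (87.5 and 41.0 against 9.50) and Foxf1 on U74Av2 (16.2 and 9.20 against 6.90 and 6.10). For Tfap2b on U74Av2, 1 heterozygote array lies higher (98.6 against 22.8 and 26.7).

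Msc, also called musculin or MyoR, is a bHLH factor known as a repressor of muscle genes. Its U74Av2 probe set read 195 and 191 in wild-type, 277 and 274 in heterozygotes and 1578 and 1685 in knockouts. The 3 genotypes did not overlap. Knockout minus wild-type was 2.79 ± 0.21 (6.92-fold), and the lowest knockout signal was 5.70 times the highest other signal.

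Irx1, an Iroquois homeobox factor of regional patterning, was read by a pair of probe sets on U74Bv2. Probe set 111554_i_at read 206 in wild-type, 240 and 193 in heterozygotes and 974 and 1010 in knockouts. Probe set 111555_f_at read 647 in wild-type, 552 and 568 in heterozygotes and 3919 and 3542 in knockouts. Both separated the knockout arrays from all others, with knockout minus wild-type at 2.02 ± 0.26 (4.07-fold) and 2.44 ± 0.20 (5.42-fold). Names ending in _i_at or _f_at mark relaxed designs, the latter able to match related transcripts, so these are not independent readings of Irx1.

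Lmcd1, a LIM and cysteine-rich protein known to restrain GATA factors, was on U74Bv2 alone, where 1 probe set read 162 in wild-type, 176 and 273 in heterozygotes and 1248 and 993 in knockouts. Knockout minus wild-type was 2.46 ± 0.31 (5.49-fold). The knockout arrays stood clear of the rest, the lower of them being 3.64 times the highest other signal, that of heterozygote array 2.

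Foxf1, a forkhead factor of visceral mesoderm and lung, gave a different size of gain on the 2 array types. The U74Bv2 probe set read 280 in wild-type, 278 and 352 in heterozygotes and 1036 and 1261 in knockouts, and knockout minus wild-type was 1.86 ± 0.26 (3.62-fold). The U74Av2 probe set was dim, at 6.90 and 6.10 in wild-type, 16.2 and 9.20 in heterozygotes and 52.6 and 71.7 in knockouts. The order of the knockout arrays against the rest was the same, but this probe set stayed below the filter on dim probe sets, and its difference of 0.98 ± 0.16 comes from a fit without the filter. Its plain ratio of mean signals was 9.56, and the pseudocount is large beside its signals.

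Zbtb16, also called PLZF, is a BTB zinc-finger repressor of limb patterning, germline stem cells and innate-like T cells. Probe set 92202_g_at read 104 and 98.7 in wild-type, 63.4 and 126 in heterozygotes and 448 and 656 in knockouts, with knockout minus wild-type at 1.97 ± 0.33 (3.92-fold). Probe set 92201_at, below the filter, read 28.0 and 30.3 in wild-type, 50.1 and 28.1 in heterozygotes and 46.7 and 53.6 in knockouts. The second probe set was the only one of the 12 whose knockout arrays did not both exceed all others, and its difference was 0.34 ± 0.20 in the fit without the filter. A name ending in _g_at marks a probe set that can match several transcripts of a gene group, so the gain of Zbtb16 rests on 1 probe set of that design.

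By size the gains fell into a group of about 4 on the log2 scale, Gata3 and Tfap2b, and a group from 1.86 to 2.79, the other tested probe sets. Within the lower group, neighbours in the order Msc, Lmcd1, Irx1 (111555_f_at) differed by less than the standard error of the difference, and so did Irx1 (111554_i_at), Zbtb16 and Foxf1. Of the 12 probe sets 10 passed the filter, 4 on U74Av2 and 6 on U74Bv2. The U74Av2 probe set of Tfap2b and the U74Bv2 probe set of Gata3 passed only through their knockout arrays, since leaving out either knockout array put them below it. At a limma Benjamini-Hochberg adjusted p under 0.05, 3 of the 4 tested on U74Av2 (all but Zbtb16) and all 6 on U74Bv2 were called higher in knockout than in wild-type. Over all probe sets tested, 0.107% and 0.470% were called higher. The same 9 were called higher in knockout than in heterozygote, where the shares over all probe sets were 0.0805% and 0.510%. Since the contrast chose the genes, nothing is read from these counts. Both knockout arrays exceeded all others in 11 of the 12, against 8.53% of tested probe sets on U74Av2 and 14.9% on U74Bv2, also as a description.

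The array types and probe sets gave like values for some of the genes. For Gata3 the U74Av2 minus the U74Bv2 value of knockout minus wild-type was -0.11 ± 0.47 (SE, taking the values as independent). For Tfap2b it was -0.057 ± 0.44. Both differences are well inside their error, though intervals of this width also leave room for unequal gains. For knockout minus heterozygote the array types were less alike, at 0.75 ± 0.41 for Gata3 and -0.48 ± 0.41 for Tfap2b. The labels do not say whether U74Av2 and U74Bv2 arrays received the same RNA pools, so the array types may not be independent samples. The Irx1 probe sets differed by -0.41 ± 0.33 (111554_i_at minus 111555_f_at), and by -0.66 ± 0.27 for knockout minus heterozygote. Larger gaps were found for Foxf1, -0.87 ± 0.31 (U74Av2 minus U74Bv2), and Zbtb16, -1.63 ± 0.38 (92201_at minus 92202_g_at), in both cases with the dim probe set showing less on this scale. For Foxf1 the plain ratios of mean signals ran the other way, 9.56 for the dim U74Av2 probe set and 4.10 for U74Bv2.

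For the tested probe sets knockout stayed higher within each array number, while the size of the gain varied for some of them. Arrays of U74Av2 with the same number in the labels deviated together, so knockout minus wild-type was also taken within each number. It was 4.53 and 4.08 for Gata3 and 4.0 and 3.82 for Tfap2b. It was 2.73 and 2.85 for Msc and 1.69 and 2.25 for Zbtb16 92202_g_at. On U74Bv2 only number 1 had a wild-type array, and there the values ran from 1.72 for Foxf1 to 4.25 for Tfap2b. With the number as a block, Zbtb16 92202_g_at was called as well. The calls on U74Av2 rest on few arrays: without wild-type array 1 or 2, or knockout array 2, Gata3 alone was called, and without knockout array 1 none was. On U74Bv2 calls of Foxf1, Lmcd1 and Irx1 111554_i_at were lost in a fit without the filter.

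Heterozygotes, which keep 1 intact copy of Pou4f1, were compared with wild-type as a question of its own, though the comparison shares the wild-type arrays with the one that chose the genes. No probe set of the 7 genes was called, as for 0% of all probe sets tested on either array type by limma. At an unadjusted p under 0.05 the counts over all probe sets were 52 of 7453 on U74Av2 and 283 of 7446 on U74Bv2, and 1 of the 10 tested here was among them. That was Gata3 on U74Bv2, 0.91 ± 0.39 higher in heterozygotes (limma adjusted p = 1.00), measured against 1 wild-type array of very low signal. That probe set and the U74Av2 probe set of Tfap2b passed the filter only through their knockout arrays. Nothing is therefore read from their heterozygote tests. Gata3 on U74Av2, with 2 wild-type arrays, differed by 0.056 ± 0.26 (95% interval -0.55 to 0.67).

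**Figure D2:**
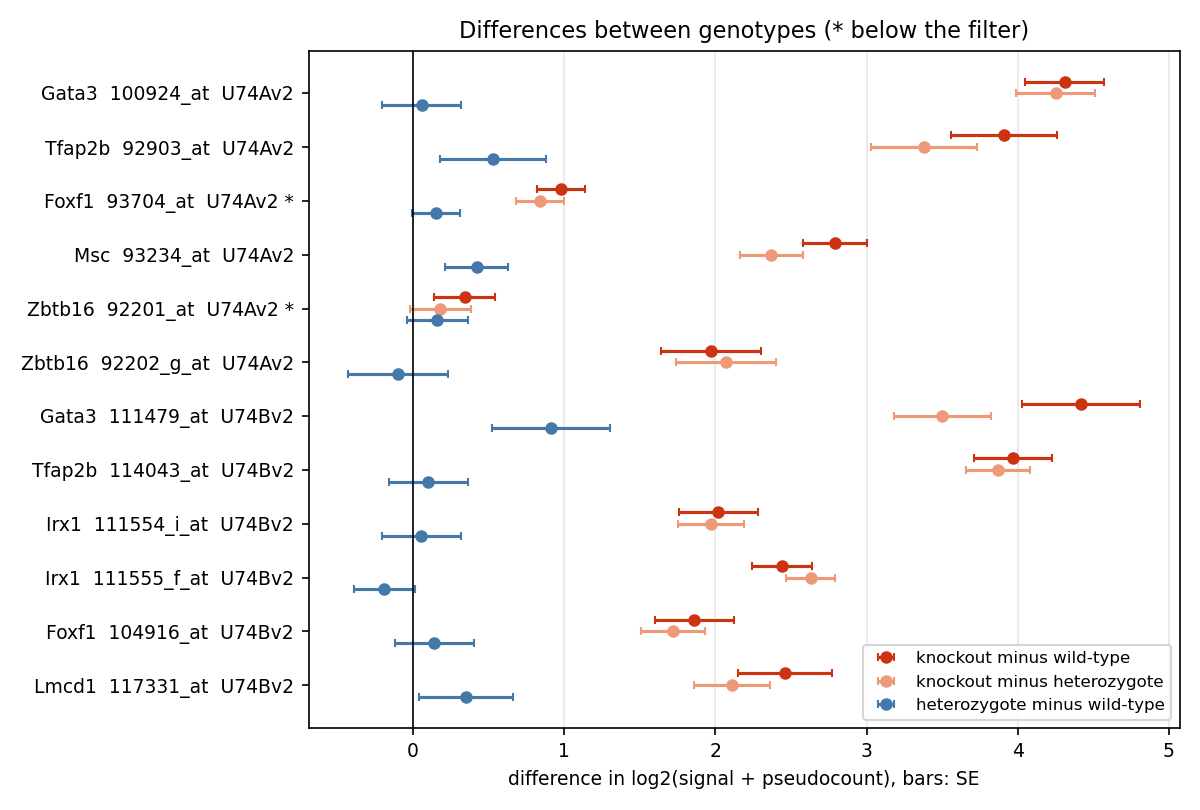
Difference between genotypes in log2(signal + pseudocount) for each probe set, with standard errors from the limma fit; red is knockout minus wild-type, pale red knockout minus heterozygote and blue heterozygote minus wild-type. Blue points lie between -0.19 and 0.91, while the red points of the 10 tested probe sets lie between 1.86 and 4.42; the 2 starred probe sets were below the filter and come from a fit without it.

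For Msc both heterozygote arrays, at 277 and 274, lay above both wild-type arrays, at 195 and 191, and the step was 0.42 and 0.43 within the array numbers. The fitted step of 0.42 ± 0.21 (95% interval -0.062 to 0.91, limma adjusted p = 1.00) did not pass the test and amounts to 15.2% of the knockout step. Tfap2b on U74Av2 had a step of 0.53 ± 0.35 (interval -0.31 to 1.36), carried by the array at 98.6. On U74Bv2 the step of Tfap2b was 0.10 ± 0.26. Lmcd1 stepped by 0.35 ± 0.31, Foxf1 on U74Bv2 by 0.14 ± 0.26, and the Irx1 probe sets by 0.054 ± 0.26 and -0.19 ± 0.20. Zbtb16 92202_g_at stepped by -0.10 ± 0.33.

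In sign, 10 of the 12 probe sets had a heterozygote mean above wild-type and 2 below. For Gata3 and Zbtb16 92202_g_at on U74Av2 and for Foxf1, Irx1 111554_i_at and Tfap2b on U74Bv2 that sign turned when 1 array was left out, so the sign count is not a stable one. For the tested probe sets knockout minus heterozygote ran from 1.72 ± 0.21 for Foxf1 on U74Bv2 to 4.25 ± 0.26 for Gata3 on U74Av2. The probe sets below the filter differed less, Foxf1 93704_at by 0.84 ± 0.16 and Zbtb16 92201_at by 0.18 ± 0.20. These comparisons share the knockout arrays.

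Relatives and known partners of the 7 genes were followed by family. On U74Av2, 68 of the 103 relatives with a probe set passed the filter, and 0 were called in knockout against wild-type by limma. At an unadjusted p under 0.05, 4 were higher and 3 lower, and over all probe sets 0.255% were called in either direction. On U74Bv2, 0 of 40 measured relatives were called, with 5 higher and 1 lower at an unadjusted p under 0.05, where 1.40% of all probe sets were called. Against heterozygotes 0 relatives were called on U74Av2 and 1 on U74Bv2, Prickle2, where 0.188% and 1.71% of all probe sets were called. The median difference of the relatives was 0.10 on U74Av2 and 0.058 on U74Bv2, beside 0.016 and 0.025 over all probe sets. No measured relative reached the smallest tested gain of the 7 genes, the largest being 1.17 for Cited1 on U74Av2 and 1.43 for Zbtb18 on U74Bv2. Nothing is read from this gap, since the 7 genes were chosen because they rise and the relatives were not. It also depends on the filter. Irx2, a relative below the filter on U74Bv2, differed by 1.86 ± 0.45 in the fit without it, the same as the 1.86 of Foxf1 there. With the array number as a block, 6 relatives were called on U74Av2 and 2 on U74Bv2. They were Pbx3, Lmo1 and Lmo4, which rose, and Meis2, Id1 and Lmo2, which fell, on U74Av2, and Prickle2 and Zbtb18, which rose, on U74Bv2. Against heterozygotes with the block the same 6 were called on U74Av2. On U74Bv2 the calls were Prickle2, Foxp1 and Tcf4, which rose, and Foxn3, which fell.

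**Figure D3:**
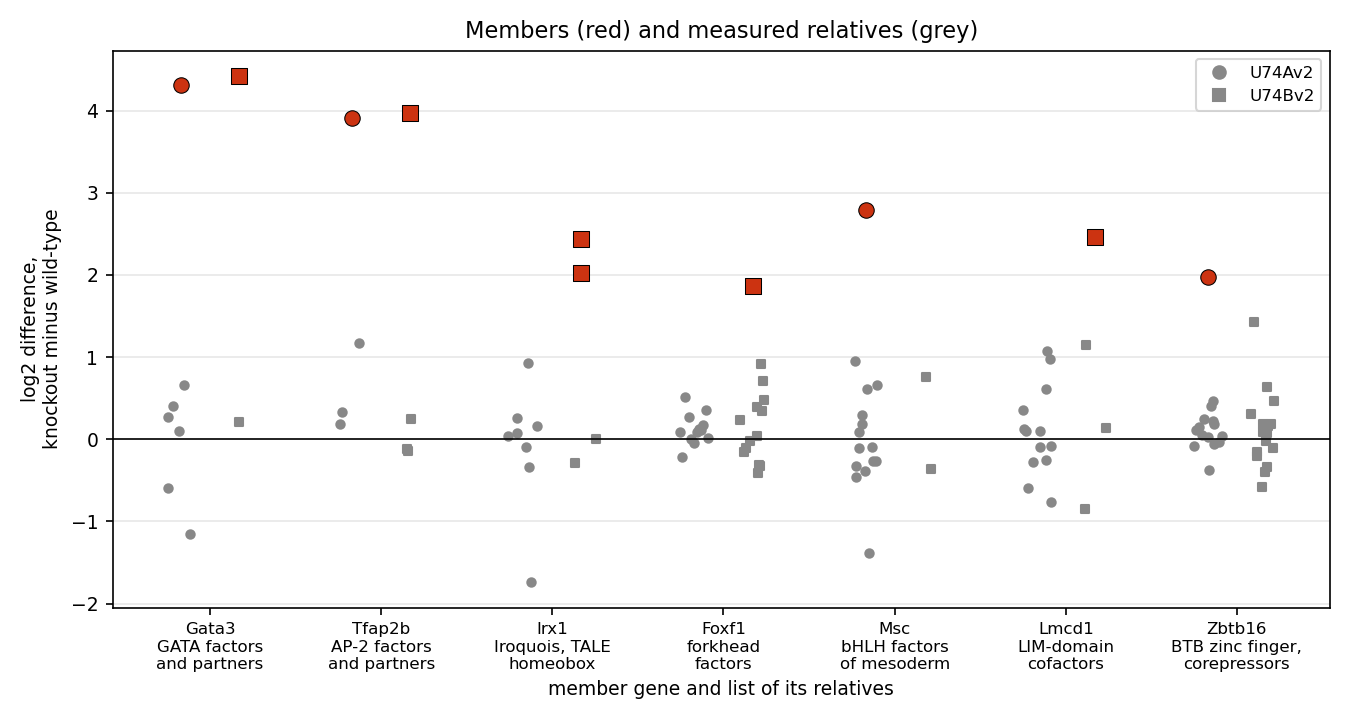
Knockout minus wild-type difference in log2(signal + pseudocount) of the tested probe sets of the 7 genes (red) and of the measured relatives in each gene's family list (grey), circles for U74Av2 and squares for U74Bv2. The measured relatives spread around 0, from -1.74 for Meis2 to 1.43 for Zbtb18. They lie below the red symbols of the 7 genes, which were chosen because they rise. Only tested probe sets are shown, so Irx2, below the filter, is not plotted.

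The brightest members of each family are given as values. Among GATA factors and partners, Ldb1, a scaffold of GATA and LIM complexes, differed by 0.10 ± 0.38 and the GATA cofactor Zfpm1 (FOG1) by 0.66 ± 0.29. Gata2, the closest relative of Gata3, read 571 and 370 in wild-type, 665 and 443 in heterozygotes and 792 and 492 in knockouts, which overlap (0.40 ± 0.34). Gata2 and Gata4 are named here outside the choice by brightness. Trps1, an atypical GATA repressor on U74Bv2, differed by 0.21 ± 0.29. Gata4 read 1009 and 540 in wild-type, 332 and 467 in heterozygotes and 908 and 82.1 in knockouts on U74Av2 (-1.15 ± 0.83), a wide spread within genotypes, and its U74Bv2 probe set stayed below the filter, as did Gata5 and Gata6 on U74Av2. None of these was called.

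In the AP-2 family, Tfap2a read 379 and 270 in wild-type, 410 and 205 in heterozygotes and 379 and 454 in knockouts (0.33 ± 0.34). The genotypes overlapped, in contrast to Tfap2b on the same arrays, although the difference between these genes was not tested. The AP-2 coactivator Cited2 differed by 0.19 ± 0.21, and on U74Bv2 Cited4 by -0.12 ± 0.21 and the AP-2 inhibitor Kctd15 by -0.14 ± 0.20. Among Iroquois and TALE homeobox factors, Pbx3, a partner of Hox proteins, read 1150 and 1254 in wild-type, 1362 and 1197 in heterozygotes and 2126 and 2565 in knockouts (0.93 ± 0.21, limma adjusted p = 0.293, and 0.0320 with the block). The repressor Tgif2 differed by 0.045 ± 0.32. On U74Bv2 Pknox2 and Pknox1, which pair with Pbx proteins, differed by -0.29 ± 0.22 and 0.0022 ± 0.21.

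Among forkhead factors on U74Av2, Foxo4, a target of insulin signalling, differed by 0.021 ± 0.38 and Foxm1, a factor of dividing cells, by 0.0084 ± 0.29. The U74Bv2 probe set of Foxm1 read 184 in wild-type, 180 and 268 in heterozygotes and 317 and 351 in knockouts (0.71 ± 0.34). On U74Bv2 Foxj2 and Foxn3 differed by -0.11 ± 0.21 and -0.41 ± 0.20. Foxp1, named outside the choice by brightness, differed by 0.52 ± 0.24 on U74Av2 and 0.92 ± 0.24 on U74Bv2. Of the measured forkhead relatives, 10 of 12 were above wild-type on U74Av2 and 7 of 13 on U74Bv2. Foxf2, the nearest paralog of Foxf1, stayed below the filter. Among bHLH factors, the inhibitors Id2 and Id4 differed by -0.46 ± 0.22 and -0.27 ± 0.19. Id1, called lower with the block, read 1160 and 1259 in wild-type, 1003 and 1210 in heterozygotes and 366 and 502 in knockouts (-1.39 ± 0.24, limma adjusted p = 0.134, and 0.00514 with the block). The E protein Tcf4, a dimer partner of bHLH factors, differed by 0.76 ± 0.19 on U74Bv2, and Hand2, a factor of sympathetic neurons and heart, by -0.36 ± 0.33. Myod1 and Myog, muscle factors that Msc is known to oppose, differed by -0.092 ± 0.36 and -0.11 ± 0.54.

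Among LIM-domain cofactors, Lmo4, a regulator of LIM complexes, differed by 1.08 ± 0.43 and Fhl1 by 0.10 ± 0.36. Lmo4 followed the array number, at 754 and 1224 in wild-type, 789 and 1204 in heterozygotes and 1397 and 3132 in knockouts. On U74Bv2 Prickle2, a planar polarity protein, differed by 1.15 ± 0.26 and Limd1 by 0.14 ± 0.28. Among BTB factors and corepressors, the deacetylase Hdac2 differed by 0.41 ± 0.26 and the scaffold Sin3a by -0.082 ± 0.21. On U74Bv2 Patz1 and Zbtb33 differed by 0.083 ± 0.19 and 0.18 ± 0.31. None of the genes in this paragraph was called without the block in knockout against wild-type. Against heterozygotes Prickle2 was called higher in knockout without the block, by 1.21 ± 0.21 (limma adjusted p = 0.0271).

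Genes that lie next to the 7 regulators were also followed, in the order of the RefSeq gene table. The nearest 3 protein-coding genes with a probe set on each side came to 42 genes and 75 probe sets, of which 50 probe sets passed the filter. Their median difference was -0.019, and 3 of the 50 probe sets, from 2 genes, were called. Over all probe sets tested, 0.255% were called on U74Av2 and 1.40% on U74Bv2. Nothing is read from so small a count. Htr3a, the serotonin-gated channel subunit, lies 2 genes from Zbtb16 and read 1049 and 854 in wild-type, 1129 and 1242 in heterozygotes and 5244 and 4788 in knockouts. It was higher in knockout by 2.34 ± 0.21 (limma adjusted p = 0.0114). That call was lost without either wild-type or either knockout array, with adjusted p from 0.0573 to 0.132, while the difference stayed between 2.20 and 2.48. Ube2ql1, a ubiquitin-conjugating enzyme, lies 5 genes from Irx1 and was lower in knockout by both of its probe sets, with differences of -1.87 ± 0.21 (limma adjusted p = 0.00561) and -1.84 ± 0.20 (adjusted p = 0.00532). Its first probe set read 6891 in wild-type, 6521 and 5710 in heterozygotes and 1918 and 1782 in knockouts.

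**Figure D4:**
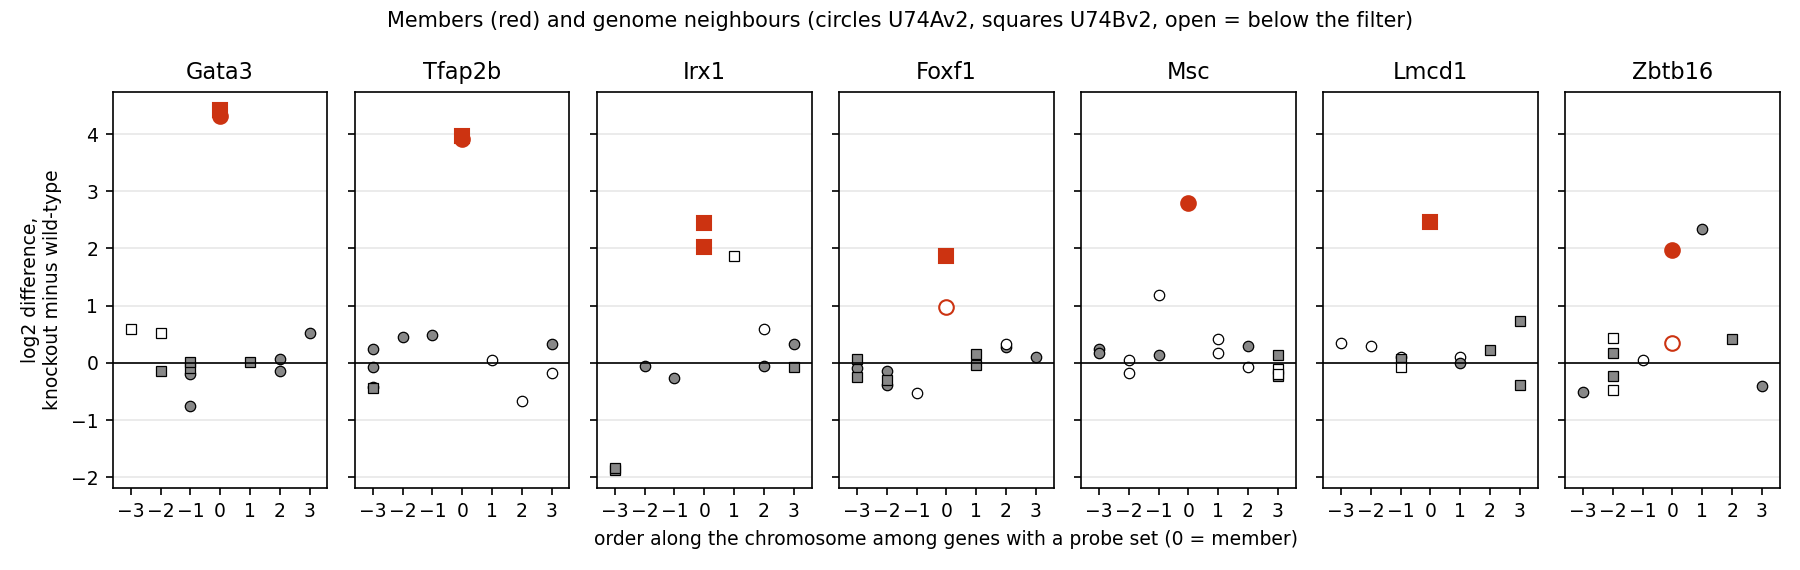
Knockout minus wild-type difference in log2(signal + pseudocount) of each of the 7 genes (red, position 0) and of its nearest genes with a probe set, by order along the chromosome; circles are U74Av2, squares U74Bv2 and open symbols probe sets below the filter. Apart from Htr3a beside Zbtb16 at 2.34, Ube2ql1 near Irx1 at -1.87 and -1.84, and Irx2 beside Irx1 at 1.86, the symbols near the 7 genes lie within 1.2 of 0.

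Irx2, the Iroquois gene next to Irx1, was dim and below the filter. It read 90.6 in wild-type, 10.4 and 51.6 in heterozygotes and 423 and 502 in knockouts, with knockout minus wild-type at 1.86 ± 0.45 in the fit without the filter. The knockout arrays stood above the rest as for Irx1, and whether probes of these related genes read each other's transcript was not tested. Beside Foxf1, the forkhead genes Foxc2 and Foxl1 differed by 0.27 ± 0.26 and 0.11 ± 0.23, and Mthfsd by 0.16 ± 0.26 and -0.033 ± 0.27. Beside Gata3, Taf3 differed by 0.015 ± 0.31 and the 4 probe sets of Celf2 by -0.75 to 0.021. Beside Msc, the brighter probe set of Eya1, a transcriptional cofactor, differed by 0.13 ± 0.34. The other Eya1 probe set, below the filter, read 14.8 and 75.5 in wild-type, 38.8 and 164 in heterozygotes and 163 and 145 in knockout arrays (1.18 ± 0.50 in the fit without the filter), so the genotypes overlapped. Pkhd1 beside Tfap2b, Irf8 beside Foxf1 and Nnmt beside Zbtb16 were below the filter too, at 0.045 ± 0.23, -0.53 ± 0.38 and 0.058 ± 0.27. None of these neighbours was called.

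The genes whose pattern was most like the mean profile of the regulators, of which 4 entered it on U74Av2 and 5 on U74Bv2, were found on each array type among tested genes whose genotype means span at least 1 on the log2 scale. On U74Av2, among 175 such genes over 6 arrays, they were the neuropeptide Sst (Pearson r = 0.9996), the vesicle GTPase Rab3b (0.9967), Htr3a (0.9922), the cadherin Cdh6 (0.9888) and the protease inhibitor Serpini1 (0.9801). Sst read 55.7 and 63.4 in wild-type, 69.3 and 85.0 in heterozygotes and 1662 and 1842 in knockouts. Rab3b read 64.7 and 59.4 in wild-type, 60.4 and 59.0 in heterozygotes and 593 and 666 in knockouts. These have the same shape as the regulators, low in 4 arrays and high in 2. On U74Bv2, among 276 genes over 5 arrays, they were the mitotic kinase Pbk (0.9995), the cortactin-binding protein Cttnbp2 (0.9974), Fstl5 (0.9946), the beta-catenin inhibitor Ctnnbip1 (0.9945) and the integrin adaptor Fermt2 (0.9938). Their differences of knockout minus wild-type ran from 1.07 for Pbk to 1.94 for Fstl5. Over so few arrays, with the knockouts at one end, any gene that separates the genotypes gets a high r.

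Markers of other cell types in or near the ganglion were read on the same arrays, since several of the 7 genes are known from other tissues. On U74Av2, 0 of 79 measured genes of 9 marker lists were called, with 3 higher and 4 lower at an unadjusted p under 0.05 by limma. The summed signal of 13 measured mesenchyme genes was 11193 to 12287 in wild-type, 12248 to 12535 in heterozygote and 13983 to 15173 in knockout arrays. Of these 13 genes 12 had a knockout mean above wild-type, with a median difference of 0.29. None of the 13 was called, with or without the block, and their differences ran from -0.34 for Msx1 to 0.80 for Col3a1. The sums of both knockout arrays lay above those of all other arrays. The regulators Foxf2, Foxc1, Prrx1, Prrx2, Twist1 and Tcf21 of that list were below the filter, and the collagen Col1a1 read 1862 and 1512 in wild-type, 1514 and 1886 in heterozygotes and 2243 and 1891 in knockouts.

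The 11 measured genes of Schwann cells and satellite glia summed to 17476 to 18863 in wild-type, 19585 to 21231 in heterozygote and 22294 to 25071 in knockout arrays, with a median difference of 0.34 and 8 of 11 above wild-type. That sum was set mostly by Fabp7, at 9736 and 11460 in wild-type, 14450 and 11880 in heterozygotes and 16258 and 12753 in knockouts. Cdh6 had the largest difference of the list, 1.06 ± 0.24. Against heterozygotes it differed by 1.12 ± 0.24 (limma adjusted p = 0.246, and 0.0498 with the block). On U74Bv2 1 of 12 measured marker genes was called, Ngfr, the p75 neurotrophin receptor of glia and sensory neurons, lower in knockout with a difference of -1.31 ± 0.22 (limma adjusted p = 0.0319), a call lost without the filter or the intensity trend. Genes of sympathetic neurons, cells known to express Gata3 and Tfap2b, summed to 5985 to 6605 in wild-type, 6951 to 7020 in heterozygote and 4733 to 6153 in knockout arrays over 8 genes. Th, their defining enzyme, read 3078 and 3375 in wild-type, 3304 and 4126 in heterozygotes and 1391 and 1563 in knockouts (-1.10 ± 0.21, limma adjusted p = 0.194, and 0.00797 with the block). Insm1, a zinc-finger factor of neuroendocrine cells, read 588 and 308 in wild-type, 514 and 251 in heterozygotes and 1080 and 618 in knockouts (0.86 ± 0.44, limma adjusted p = 1.00, and 0.0414 with the block). Of that list 7 of the 8 had a knockout mean above wild-type, Th being the one below.

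Inner ear genes summed to 3242 to 4517, 3777 to 4102 and 3907 to 4300 in wild-type, heterozygote and knockout arrays of U74Av2 over 5 measured genes. Sox2 was by far the brightest of them, at 1424 to 2966. Of 15 inner ear genes on the array 10 were below the filter, Pax2, Pax8 and Dlx5 among them. Skeletal muscle genes summed to 3255 to 4029, 3487 to 4152 and 3423 to 4463 over 12, with 12 of 24 below the filter. Epidermis genes summed to 1291 to 1414, 1066 to 1389 and 1221 to 1314 over 4, with 16 of 20 below the filter, Krt5, Krt14 and Trp63 among them. The genotypes overlapped in these lists, of which most inner ear and epidermis genes were not measured. They also overlapped for 9 endothelial genes, at 3182 to 3435, 3037 to 3384 and 2966 to 3325, and for 5 central nervous system genes, at 915 to 988, 809 to 1027 and 735 to 960. Below the filter were 4 of 13 endothelial and 11 of 16 central nervous system genes. Over 12 blood and immune genes the knockout sums, 45246 to 55262, lay above wild-type, 34720 to 39415, and within the heterozygote range of 41618 to 60523, with a median difference of 0.043. These sums were set mostly by the globin genes Hbb-y and Hba-a1. Hbb-y read 18957 and 14854 in wild-type, 34906 and 18216 in heterozygotes and 30303 and 20729 in knockouts. Hba-a1 read 16132 and 17118, 21544 and 20514, and 21356 and 21783 in that order. The T cell genes Cd3e, Cd3g, Cd3d, Cd8a and Il7r were below the filter. The part that other cell types may have in the gains of the 7 regulators was not tested.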

How the data were processed

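Total RNA of pooled ganglia was hybridised to 6 U74Av2 and 5 U74Bv2 arrays. The authors deposited linear intensity signals, 1 for each probe set, which per the submitters' processing notes come from MAS5. Version and scaling target were not given in the sources used here. Their 2% trimmed means were 500.26 to 500.29 on U74Av2 and 497.61 to 498.38 on U74Bv2, so no scaling was added. The number of arrays limits the precision, and p-values reflect only how far these arrays differ from each other, which may be technical.

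Symbols came from the platform annotation. On U74Av2, 10855 probe sets had 1 symbol, 396 several and 1237 none, and on U74Bv2 10581, 178 and 1652. The 66 controls on U74Av2 were left out. Signals were taken as log2(signal + pseudocount), the pseudocount being 0.1 of the mean trimmed mean. Probe sets with a mean log2 at or below the 40th percentile were left out, leaving 7453 and 7446. limma 3.58.1 in R 4.3.3 fitted genotype to all arrays of a type, with eBayes, intensity trend included. Calls were made at a two-sided Benjamini-Hochberg adjusted p under 0.05. The lone wild-type U74Bv2 array was assumed to vary like the other genotypes. The fit was tested on simulated data. Plots used Python 3.11.15 with matplotlib 3.10.9.

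The 7 genes, the family and marker lists and the rules for naming genes were chosen with earlier results of these data known. Named are every probe set of the 7 genes, the called or otherwise the 2 brightest relatives per family and array type, the 5 most alike genes per array type, the nearest 3 neighbours per side, of which those called, those adjacent to a gene and the forkhead genes near Foxf1 are printed, and marker lists by count and sum with their called genes. Further genes (Gata2, Gata4, Prph, Scn9a, Insm1, Myod1, Myog, Id1, Th and others given with values) were named after their values were seen. A gene of a list is represented by its brightest probe set and counted as called if any of its probe sets was.

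Array numbers 1 and 2 in the labels were checked as a pairing. Deviations of same-numbered U74Av2 arrays from their genotype means correlated at 0.571 (wild-type and heterozygote), 0.619 (wild-type and knockout) and 0.533 (heterozygote and knockout), so values from a block on this number are given where it changes a call. On U74Bv2 the correlation of the 1 pair that could be checked was 0.103. Other alternatives were the pseudocount, the filter, the trend, quantile normalization and leaving out each array. Promoter windows are from RefSeq, GRCm38.p6, and the gene order comes from the RefSeq table of the same assembly.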

Additional observations from a re-analysis of the deposited data

How the results depend on the processing

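All 7 reversals concerned small heterozygote steps. With 1 array left out in turn, the step of Gata3 on U74Av2 ranged from -0.14 to 0.25 (-0.086 without wild-type array 1) and that of Zbtb16 92202_g_at from -0.42 to 0.22. On U74Bv2 it ranged from -0.0092 to 0.28 for Foxf1, from -0.073 to 0.18 for Irx1 111554_i_at and from -0.014 to 0.21 for Tfap2b, and with the replicate block Foxf1 gave -0.0037. None of the 104 alternative values of knockout minus wild-type or the 110 of knockout minus heterozygote changed sign, and 12 of each moved by more than 1 SD, most of them with the pseudocount. Gata3 ranged from 3.84 to 4.62 on U74Av2 and from 3.59 to 5.17 on U74Bv2, and Tfap2b from 3.24 to 4.47 on U74Av2.

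Counts of calls depended on the settings more than the differences did. For knockout against wild-type on U74Av2, 19 probe sets were called, 130 with the replicate block and 0 to 15 when 1 array was left out (0 without knockout array 1, 2 and 4 without a wild-type array, 5 without knockout array 2). The 3 calls among the 7 genes became 0 to 3 when 1 array was left out, and the 0 calls among relatives became 6 with the block. Against heterozygotes the 14 calls became 129 with the block and 0 to 11 with 1 array left out, and the 3 among the 7 genes 0 to 3. On U74Bv2 the 104 calls against wild-type became 21 without the filter, 40 without the intensity trend, 216 with the block and 115 to 178 with 1 array left out. The 6 among the 7 genes became 3 without the filter, and the 0 among relatives became 2 with the block and 0 to 4 with 1 array left out. The 127 calls against heterozygotes became 54, 81, 317 and 130 to 188 in the same order. The 0 calls of heterozygote against wild-type on U74Bv2 became 7 with the block and 0 to 10 with 1 array left out, and stayed at 0 on U74Av2 in every alternative. The cause of these moves was not tested. Without the wild-type U74Bv2 array no comparison with wild-type could be fitted there, and with 1 array left out a genotype's lone array was assumed to vary like the others. On U74Bv2 the block leaves few residual degrees of freedom, and the numbers are not shown to pair those arrays.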
